A study of Arabidopsis thaliana with 39 samples.

Results

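The genes described here encode proteins that loosen, remodel or build the plant cell wall, measured in roots of Arabidopsis thaliana. They were chosen by symbol alone: a gene was taken if its array row carries exactly 1 gene and its symbol begins with EXPA, EXPB, EXLA, EXLB, XTH, PME, CSL, CESA, FLA, AGP or LAC followed by a letter or number, with the highest-mean row kept per gene. This gave 43 genes on 44 rows, of 16554 genes that have a row of their own. They are 13 alpha-expansins (EXPA), 5 beta-expansins (EXPB), 3 EXLA and 1 EXLB expansin-like genes, 9 xyloglucan endotransglucosylase/hydrolases (XTH), 3 symbols beginning with PME, 8 cellulose synthase-like genes (CSL) and 1 laccase (LAC). No gene of the CESA, FLA or AGP families entered, so 8 of the 11 families are represented. Of the PME symbols 1, PMEAMT, encodes phosphomethylethanolamine N-methyltransferase, an enzyme of lipid head groups, and not a wall protein.

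A growing plant cell is held in a wall of cellulose microfibrils embedded in hemicelluloses such as xyloglucan and in pectin. Expansins loosen this network without cutting it, XTH enzymes cut and rejoin xyloglucan chains, pectin methylesterases strip methyl esters from pectin, CSL proteins make backbones of hemicelluloses, and laccases oxidise phenolic compounds such as lignin precursors. In roots these proteins act where cells elongate and where root hairs grow out, and a root tip that meets low phosphate in the presence of iron is known to stop elongating while its walls stiffen.

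The roots came from wild-type plants of accession Columbia-0, grown for 10 days in full nutrient medium with 1 mM phosphate. There are 13 groups of 3 arrays: roots taken at transfer (time 0), and roots kept for 3, 6 or 9 h after it on full medium or on media lacking phosphate, iron or both. No group carries a mutation or transgene, all grew with full nutrients until transfer, and the longest deprivation is 9 h. Replicates carry numbers from 1 to 3, and no label calls them separate cultures. The p-values therefore cover only the variation among these arrays, part of which may be technical.

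Levels are the authors' deposited values, read here as log2. That base was inferred from their range of 0.141 to 12.8 and is not given in the sources used here, and each fold given here rests on it. A difference was called when the p-value of limma's moderated test was under 0.05 after Benjamini-Hochberg adjustment, which took in all 28501 rows of the array. Errors of differences are standard errors (SE) and intervals are 95%. The root label was checked against markers: PYK10, a beta-glucosidase of root endoplasmic reticulum bodies and the only one of 15 listed root markers with a row, stood between 11.1 and 11.7 on all arrays. Of 7 listed shoot markers 2 have a row: RCA, the Rubisco activase, ranged from 5.68 to 8.50 and LHCB4.1, a light-harvesting protein, from 4.02 to 6.86, and neither was called in a comparison. The row means of RCA and LHCB4.1 lay at the 93.8 and 74.8 percentiles of all rows, beside 99.9 for PYK10. These few markers thus cannot show that shoot RNA was absent. The part of RCA and LHCB4.1 in the results below was not tested. In RNA from whole roots, fewer cells of a type and less RNA per cell cannot be told apart.

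The array rows cover the families unevenly. The members are 13 of the 24 genes with an EXPA symbol in RefSeq (TAIR10.1 assembly, taken for gene names), 5 of 6 EXPB, all 3 EXLA, the only EXLB1, 9 of 30 XTH, 8 of 26 CSL, 3 of 16 PME and 1 of 22 LAC. Row means below the first quartile of all rows (1.71) were found for 9 members, and 21 lay under the median (3.41). EXPA20 has 2 rows with means of 3.76 and 3.86, neither of them called, and their correlation over the arrays was 0.436. Some members are neighbours in the genome: EXLA3 lies beside EXLA1 on chromosome 3, XTH18 beside XTH19 on chromosome 4, and EXPA21, EXPA22, EXPA23, EXPA25 and EXPA24 follow each other on chromosome 5 with 1 gene among them, EXP26. Probes shared by such close relatives were not determined.

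No member was called in any of the 23 comparisons in the fit without a replicate block. With the replicate number as a block, 2 calls appeared, EXPB3 at 9 h against time 0 (adjusted p 0.0404 in limma) and PMEAMT at 6 h against 3 h (adjusted p 0.0179), both described below. The largest differences were those of EXPB3, XTH26 and LAC16, each over 1 on the log2 scale in at least 1 comparison, and each varied widely between replicates. Groups accounted for a median of 31.4% of a member's variation over the arrays, close to the 31.3% over all rows. With 13 groups of 3 arrays, group means take up a large share of any row's variation even without a group effect. These shares were not corrected for that and do not measure an effect of the groups. The highest group mean of 10 members (23.3%) was at 3 h without both nutrients, where 9.14% of all rows had theirs. The lowest group mean of 11 members (25.6%) was at 6 h without both, against 7.09% of all rows. Time 0 held the highest mean of 6 members (14%) and the lowest of 4 (9.30%), against 13.4% and 11.1% of all rows. These counts describe group means without their error, and no test was made of them. With 3 arrays in a group, leaving out 1 array could move 366 of the 387 differences at single times by over 1.5 times or past 0. The same held for 113 of the 129 differences averaged over times and 168 of the 215 differences between pooled times. Differences near 0 pass this bound with small shifts, and the share over all rows was not determined.

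**Figure D1:**
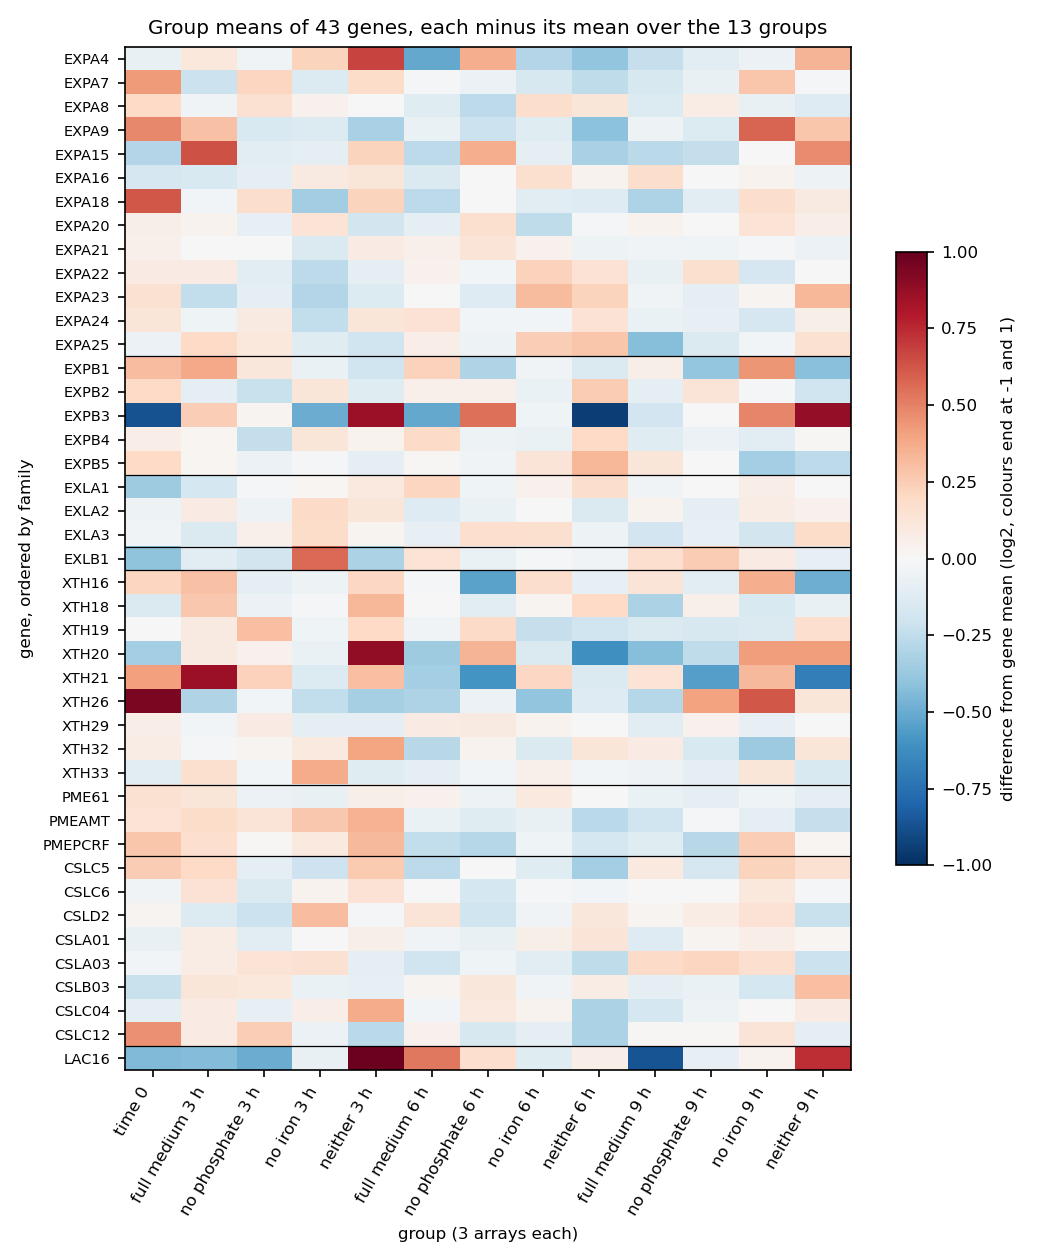
Group means of the 43 genes (rows, ordered by family) in the 13 groups of 3 arrays (columns), each as a log2 difference from the gene's mean over the groups; colours end at -1 and 1. EXPB3 is low and EXPA18 and XTH26 are high at time 0, LAC16 is high without both nutrients at 3 and 9 h, and the dim rows such as EXPA21 and XTH29 differ little between groups.

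The first question was what the move to new medium changed, whatever its composition. With the 12 arrays of each time pooled over media and set against the 3 arrays of time 0, no member was called at 3, 6 or 9 h, where 2.07%, 2.56% and 3.03% of all rows were. Without adjustment for multiple tests, p was under 0.05 for 5 members at 3 h (11.6%), 7 at 6 h (16.3%) and 4 at 9 h (9.30%), against 12.7%, 12.2% and 13.5% of rows. Over all 43 members the median differences were -0.04, -0.05 and -0.09 on the log2 scale, beside -0.02, -0.01 and -0.01 over all rows. In full medium alone no member was called either, where 0.575%, 1.15% and 1.27% of rows were, and 1, 4 and 2 members had an unadjusted p under 0.05 (2.33%, 9.30% and 4.65%, against 9.59%, 9.38% and 10.1% of rows). All of these comparisons share the same 3 time 0 arrays.

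Among the beta-expansins, a branch of the expansin family best known from grass pollen, EXPB3 gave the largest difference after transfer. Its level at time 0 was 3.65, 3.80 and 4.18. At 9 h the 12 arrays ran from 4.29 over a median of 4.90 to 6.33, so that every one of them lay above every time 0 array. At 3 h the arrays ran from 3.79 to 6.25 with a median of 4.74, overlapping time 0, and at 6 h from 3.40 to 5.94 with a median of 4.40. The lowest EXPB3 group mean was at 6 h without both nutrients, 3.81 beside 3.88 at time 0. The difference from time 0 was 1.03 (SE 0.49) at 3 h, 0.64 (SE 0.49) at 6 h and 1.17 (SE 0.49, 2.25-fold, interval 0.18 to 2.16) at 9 h.

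EXPB3 was not called at 9 h, with an adjusted p of 0.247 in the limma fit, in which replicate numbers play no part. Arrays with the same replicate number did deviate together in this comparison, with correlations over all rows of 0.361, 0.267 and 0.542 for numbers 1, 2 and 3. With the replicate number as a block the SE was 0.34 and the adjusted p 0.0404, which is a call, in a fit that called 4.24% of all rows. The block takes the order of the replicates as the same in every group. Replicate 3 was the lowest EXPB3 array in 10 of 13 groups but the highest at time 0. The call with the block was lost in 9 of the 15 fits that kept the block and left out 1 array, with differences from 0.71 to 1.63 and adjusted p from 0.0139 to 0.513. Beside it, RCA differed from time 0 by -0.55 and LHCB4.1 by 0.11 at 9 h. Full medium at 9 h read 4.89, 4.47 and 4.32, the lowest of the 4 media by its mean of 4.56 ± 0.294 (SD, n = 3).

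The other beta-expansins stayed nearer to their time 0 levels. EXPB1, EXPB2, EXPB4 and EXPB5 differed from time 0 by between -0.38 and 0.00 when media were pooled, at all 3 times. EXPB2 was the only one with an unadjusted p under 0.05, at 3 h, with a difference of -0.27 (SE 0.12, adjusted p 0.334 in limma), or -0.15 without replicate 2 of time 0.

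Root hairs are tubular outgrowths of single epidermal cells, and 3 members are known for expression there: the alpha-expansins EXPA7 and EXPA18 and the xyloglucan enzyme XTH26. All 3 had their highest group mean at time 0, as did EXPA8, PME61 and CSLC12. CSLD2, a member that root hairs need to grow normally, did not. Its highest group mean was 6.27 at 3 h without iron, beside 5.98 at time 0. EXPA18 read 5.84, 4.61 and 4.75 at time 0, and after transfer its 12 arrays had medians of 4.43, 4.33 and 4.33 at 3, 6 and 9 h. EXPA7 read 6.18, 5.13 and 5.16 at time 0, against later medians of 5.12, 4.91 and 5.0. For both genes replicate 1 of time 0 stood well above the other arrays of its group, and the time 0 range overlapped the later ones.

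XTH26 had the widest time 0 spread, with 7.63, 5.87 and 5.21. Its later arrays ran from 4.31 to 6.04 at 3 h, from 4.33 to 6.01 at 6 h and from 4.29 to 6.94 at 9 h. Replicate 1 of time 0 was thus above every other array, and replicate 3 of time 0 inside the later range. The differences from time 0 were -1.17, -1.16 and -0.73 (SE 0.49 each, adjusted p 0.285, 0.288 and 0.569 in limma). Without replicate 1 of time 0 they were -0.47, -0.47 and -0.03.

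EXPA18 differed from time 0 by -0.61, -0.74 and -0.65 (SE 0.31 each, adjusted p 0.416, 0.280 and 0.345 in limma), and by -0.23, -0.36 and -0.27 without that array. EXPA7 gave -0.42, -0.55 and -0.42 (SE 0.29 each), and -0.07, -0.21 and -0.08 without the same array. None of EXPA7, EXPA18 and XTH26 passed the test at any time. PYK10, the root marker, was also lower than at time 0, by -0.07, -0.25 and -0.24 (SE 0.09 each), without a call.

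**Figure D2:**
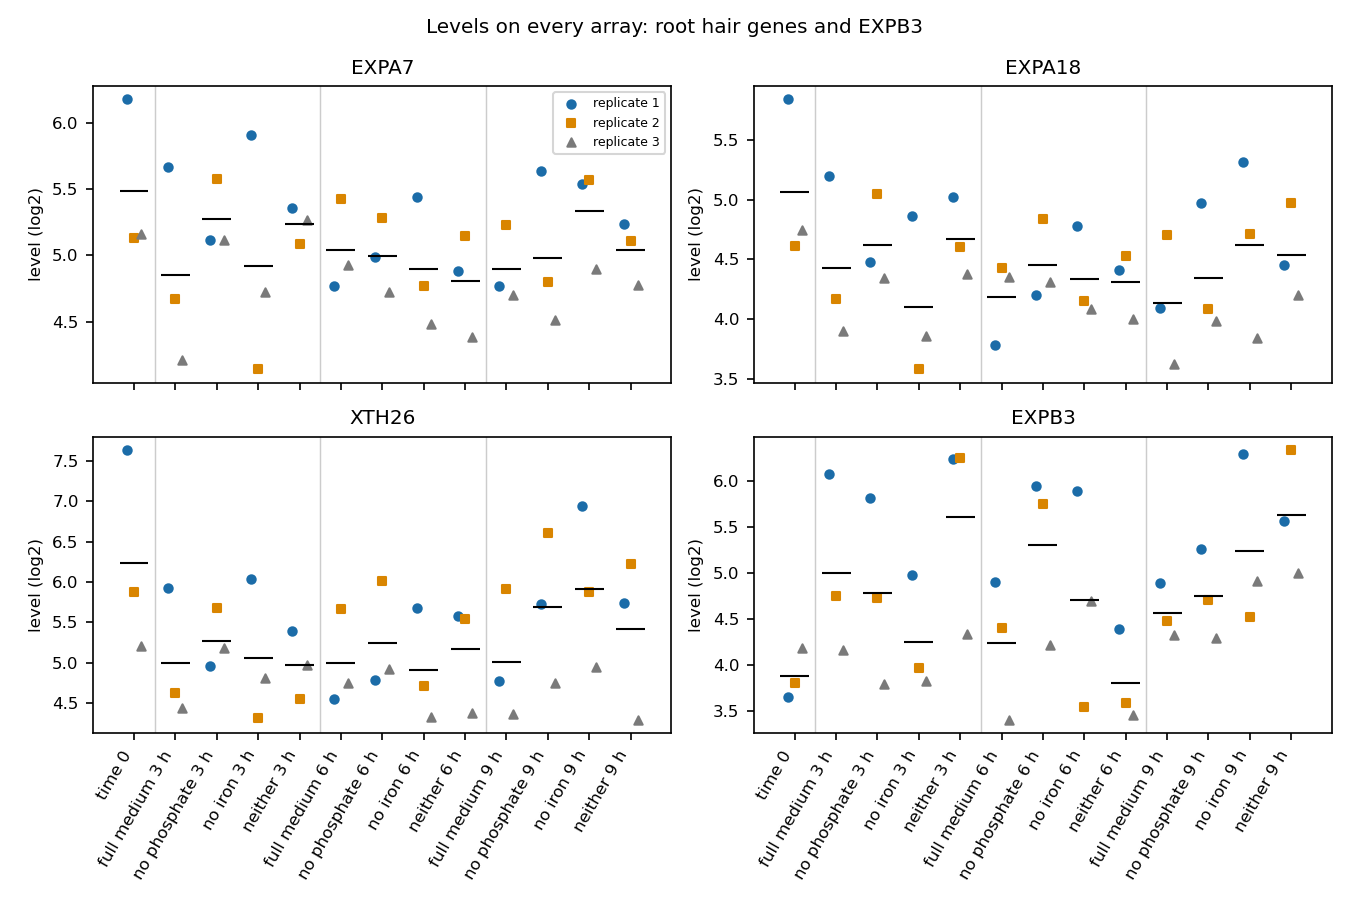
Level (log2) of EXPA7, EXPA18, XTH26 and EXPB3 on each of the 39 arrays by group, with symbols for the replicate number and a bar for each group mean (n = 3). Replicate 1 of time 0 is the highest array for EXPA7, EXPA18 and XTH26, while all 12 arrays of EXPB3 at 9 h lie above its 3 arrays at time 0.

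Of the other alpha-expansins, EXPA9 differed most from time 0 with media pooled. It read 5.34, 5.93 and 5.60 at time 0, and its 12 arrays had medians of 4.99 at 3 h, 4.96 at 6 h and 5.31 at 9 h. With media pooled the level was thus lowest at 3 and 6 h and nearer the start at 9 h, with ranges that overlapped throughout. The pooled difference was -0.56 (SE 0.23, adjusted p 0.283) at 3 h and -0.68 (SE 0.23, adjusted p 0.149) at 6 h in limma, and 9 h lay above 6 h by 0.37 (SE 0.15, adjusted p 0.323). Full medium alone took another course, at -0.19, -0.54 and -0.53 from time 0 at 3, 6 and 9 h (SE 0.30 each). Its arrays did not overlap time 0 at 6 and 9 h. The highest EXPA9 group mean, 5.72, was at 9 h without iron. In full medium EXPA15 read 5.19, 3.91 and 3.88 at 3 h against 3.2, 3.67 and 3.31 at time 0, 0.93 higher (SE 0.42, adjusted p 0.465) with no overlap. Without replicate 1 of full medium the EXPA15 difference was 0.50.

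EXLA1, an expansin-like gene whose product has no shown wall-loosening activity, was lowest at time 0, at 4.18, 4.37 and 4.35. At 6 h its arrays ran from 4.43 over a median of 4.76 to 5.19, all above time 0. The differences were 0.34, 0.45 and 0.37 at 3, 6 and 9 h (SE 0.14 each), with adjusted p of 0.300, 0.103 and 0.211 in limma. In the limma fit without a replicate block, the 6 h value of 0.103 was the lowest adjusted p of any member against time 0. EXLA2 and EXLA3 differed from time 0 by between -0.04 and 0.13.

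Among the genes that make wall polysaccharides, CSLC5 and CSLC12 belong to the CSLC group, whose enzymes make the glucan backbone of xyloglucan. CSLC5 read 4.72, 5.24 and 4.65 at time 0 and ran from 4.09 to 4.76 at 6 h, with a median of 4.39. CSLC12 read 3.87, 2.77 and 2.88 at time 0 and ran from 1.81 to 2.91 at 6 h. Both were lower at 6 h by their means, CSLC5 by -0.43 (SE 0.15, adjusted p 0.162 in limma) and CSLC12 by -0.59 (SE 0.23, adjusted p 0.237), with ranges that overlapped. For CSLC12 the high array at time 0 was again replicate 1, without which its difference was -0.24. CSLC5 was -0.25 without replicate 2 of time 0. The other 6 CSL genes, which are CSLC6, CSLC04, CSLD2, CSLA01, CSLA03 and CSLB03, had no unadjusted p under 0.05 against time 0 with media pooled. Of the pectin methylesterases, PMEPCRF was -0.46 (SE 0.22) from time 0 at 6 h and PME61 -0.23 (SE 0.11) at 9 h, neither called. At time 0 PMEPCRF read 4.62, 3.98 and 3.65 and PME61 1.5, 0.96 and 1.16, and without replicate 1, the highest for both, the differences were -0.19 and -0.08.

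The course after transfer was read from the pooled media, 6 h against 3 h and 9 h against 6 h. No member was called in either, where 1.19% and 0.379% of rows were. Unadjusted p was under 0.05 for 6 members between 3 and 6 h (14%, against 12.4% of rows) and for 3 between 6 and 9 h (6.98%, against 11.5% of rows). CSLC5 was in both counts, -0.22 (SE 0.10) and then 0.26 (SE 0.10).

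PMEAMT, the lipid enzyme among the PME symbols, came closest to a call. Its arrays ran from 7.41 over a median of 7.88 to 8.27 at 3 h and from 7.02 over 7.52 to 7.86 at 6 h. The ranges overlapped, and 6 h was lower by -0.36 (SE 0.10, adjusted p 0.0605 in limma). With the replicate block the adjusted p was 0.0179, a call in a fit that called 2.07% of rows. RCA lay -0.39 lower at 6 h than at 3 h and LHCB4.1 0.02 higher.

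XTH21, which is known from root growth, ran from 2.90 to 4.99 at 3 h and from 2.66 to 4.22 at 6 h, a difference of -0.53 (SE 0.21, adjusted p 0.267 in limma). The largest differences between 3 and 6 h after it were those of EXPA4 (-0.45, SE 0.20) and XTH20 (-0.43, SE 0.23). PMEPCRF, a pectin methylesterase, was 3.96 at 3 h and 3.62 at 6 h on average, -0.34 apart (SE 0.14, adjusted p 0.300). The largest differences between 6 and 9 h were 0.53 for EXPB3 (SE 0.31), 0.44 for XTH26 (SE 0.31) and 0.37 for EXPA9.

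The question the groups were built for is what lack of phosphate, of iron or of both changed against full medium at the same time. No member was called in any of the 9 comparisons at single times. The share of all rows called was 0% at 3 and 6 h and 0.00702% at 9 h without phosphate, 0% at all 3 times without iron, and 0.0246%, 0% and 0.00351% at 3, 6 and 9 h without both. Unadjusted p was under 0.05 for 0, 1 and 0 members without phosphate (4.51%, 4.18% and 1.98% of rows), for 3, 0 and 1 without iron (3.32%, 3.77% and 2.37% of rows), and for 2, 0 and 2 without both (4.61%, 2.98% and 3.83% of rows). At each time the 3 media share the same full-medium arrays.

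Averaged over the 3 times, the comparisons called none of the 43 members either. The background was 0% of rows without phosphate, 0.0105% without iron and 0.0105% without both. Unadjusted p was under 0.05 for 2, 0 and 2 members, against 3.55%, 2.67% and 4.33% of rows. With the 36 arrays after transfer used, 18 absent against 18 present, 0.0947% of rows were called for phosphate and 0.0737% for iron, and 0% for the phosphate by iron interaction, with no member among them. Unadjusted p was under 0.05 for 4 members in the phosphate comparison (9.30%, against 5.47% of rows). All 4 were lower (9.30%), and rows with such a p and a lower level were 2.92% of all. It was under 0.05 for 1 member in the iron comparison (2.33% against 3.96%) and for none in the interaction (2.36% of rows).

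The intervals show what sizes these arrays could hold apart. For phosphate and for iron, absent against present, the 95% interval of all 43 members lay within 2-fold in either direction, with a median half-width of 0.21 on the log2 scale. For the means over times the count was 40 without phosphate, 42 without iron and 40 without both, and the genes reaching past 2-fold were EXPB3, XTH20, XTH21, XTH26 and LAC16. At single times between 31 and 35 members stayed within 2-fold, with a median half-width of 0.53. These counts include the 9 members with row means below the first quartile, in which little can be seen. The intervals are not adjusted for multiple tests and come from the fit without a replicate block.

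**Figure D3:**
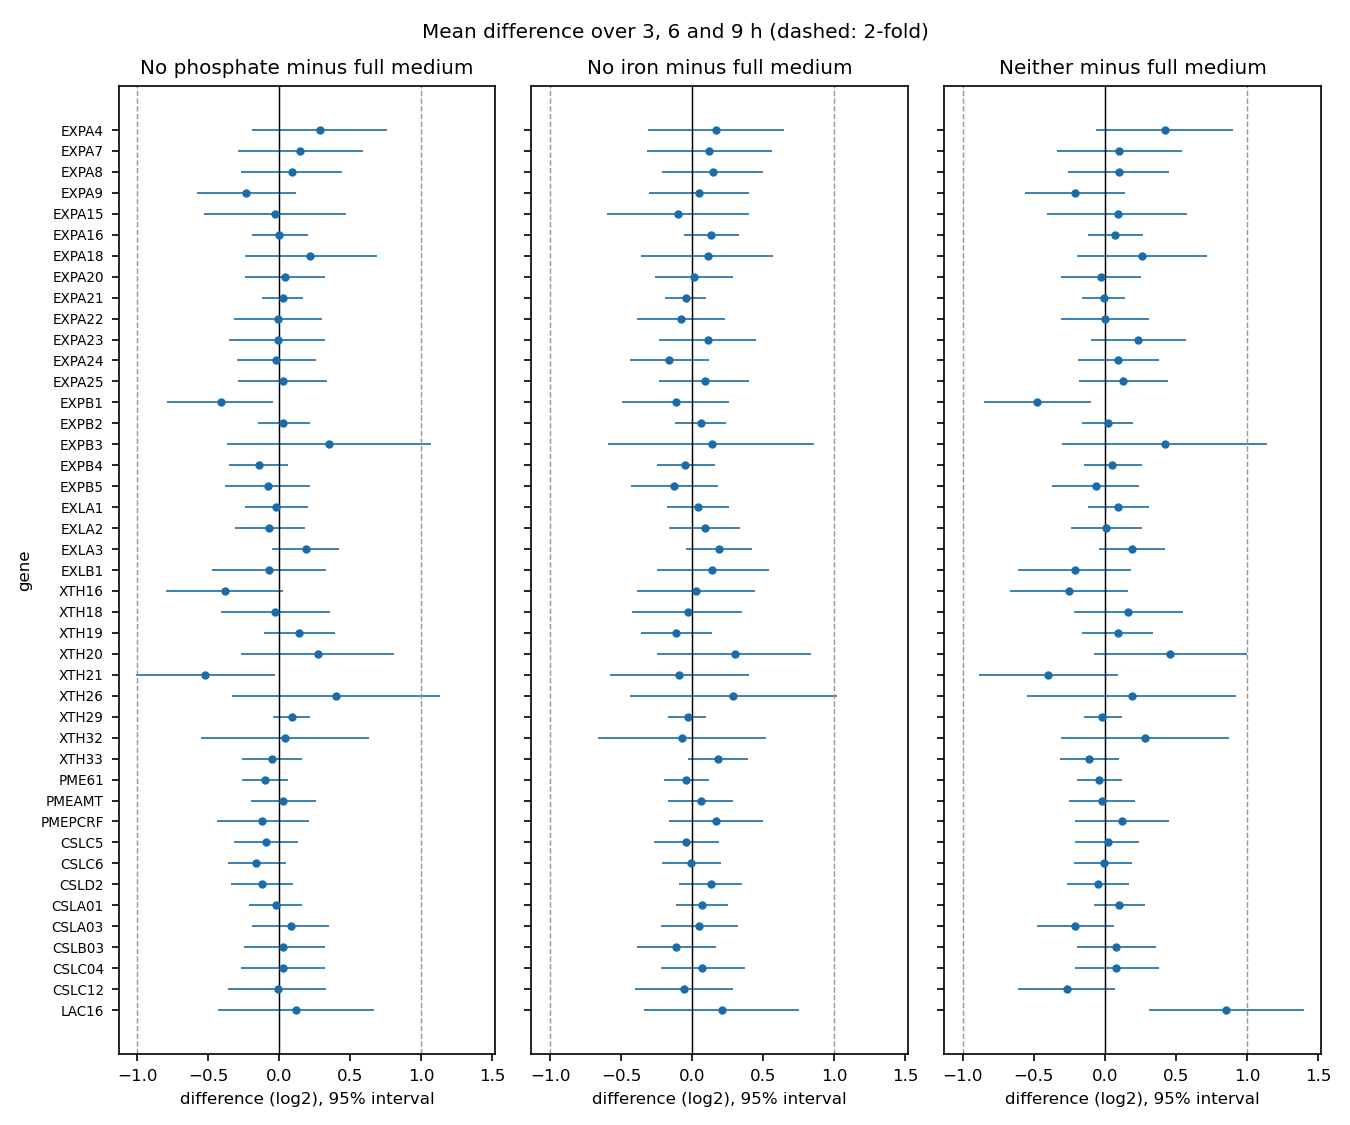
Difference from full medium averaged over 3, 6 and 9 h (log2, horizontal axis) for each of the 43 genes without phosphate, without iron and without both; points are estimates, bars 95% intervals and dashed lines a 2-fold difference. Intervals of EXPB1 and XTH21 without phosphate, and of EXPB1 and LAC16 without both, leave out 0 before adjustment, and none of these was called.

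LAC16, a laccase, gave the largest differences. Without both nutrients it read 4.88, 5.33 and 4.41 at 9 h, and in full medium 3.79, 3.14 and 2.88. All 3 deprived arrays lay above all 3 full-medium arrays, by 1.60 on average (SE 0.46, 3.04-fold, interval 0.66 to 2.55), with an adjusted p of 0.919 in limma. At 3 h it read 5.39, 6.16 and 3.79 without both and 4.24, 2.80 and 4.04 in full medium, a difference of 1.41 (SE 0.46, adjusted p 0.828) with replicate 3 inside the full-medium range. It was 0.89 without replicate 2 of the deprived arrays and 2.08 without replicate 3. At 6 h the order was the other way, with 3.75, 4.0 and 4.85 without both and 4.64, 3.99 and 5.34 in full medium, a difference of -0.46.

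Full medium itself moved between the times for LAC16. Its mean was 3.70 ± 0.779 (SD, n = 3) at 3 h, 4.66 ± 0.674 at 6 h and 3.27 ± 0.467 at 9 h, the last being the lowest of all 13 groups. At 9 h the arrays without phosphate (3.87, 3.96 and 4.32) and without iron (4.05, 3.96 and 4.49) also lay above all full-medium arrays, by 0.78 and 0.90 (SE 0.46 each), against those same controls. Time 0 read 3.26, 3.59 and 4.22, inside the range of the later full-medium arrays.

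Averaged over the times LAC16 was 0.85 higher without both than in full medium (SE 0.27, interval 0.31 to 1.40, adjusted p 0.798 in limma), against 0.12 without phosphate and 0.21 without iron (SE 0.27 each). Iron absent against present gave 0.47 (SE 0.19, adjusted p 1.00). Arrays were also weighted by how closely they followed their group means over all rows. With these weights LAC16 was called in limma at 3 h without both (adjusted p 0.0315). The 3 deprived arrays had weights of 2.34, 0.875 and 0.746, the lowest for replicate 3. The full-medium arrays at 3 h had weights of 0.682, 1.98 and 0.753. The highest of these went to replicate 2, which had the lowest LAC16 level of that group, 2.80. At 3 h RCA was 0.66 and LHCB4.1 0.44 higher without both than in full medium, and at 9 h 0.16 and -0.09.

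**Figure D4:**
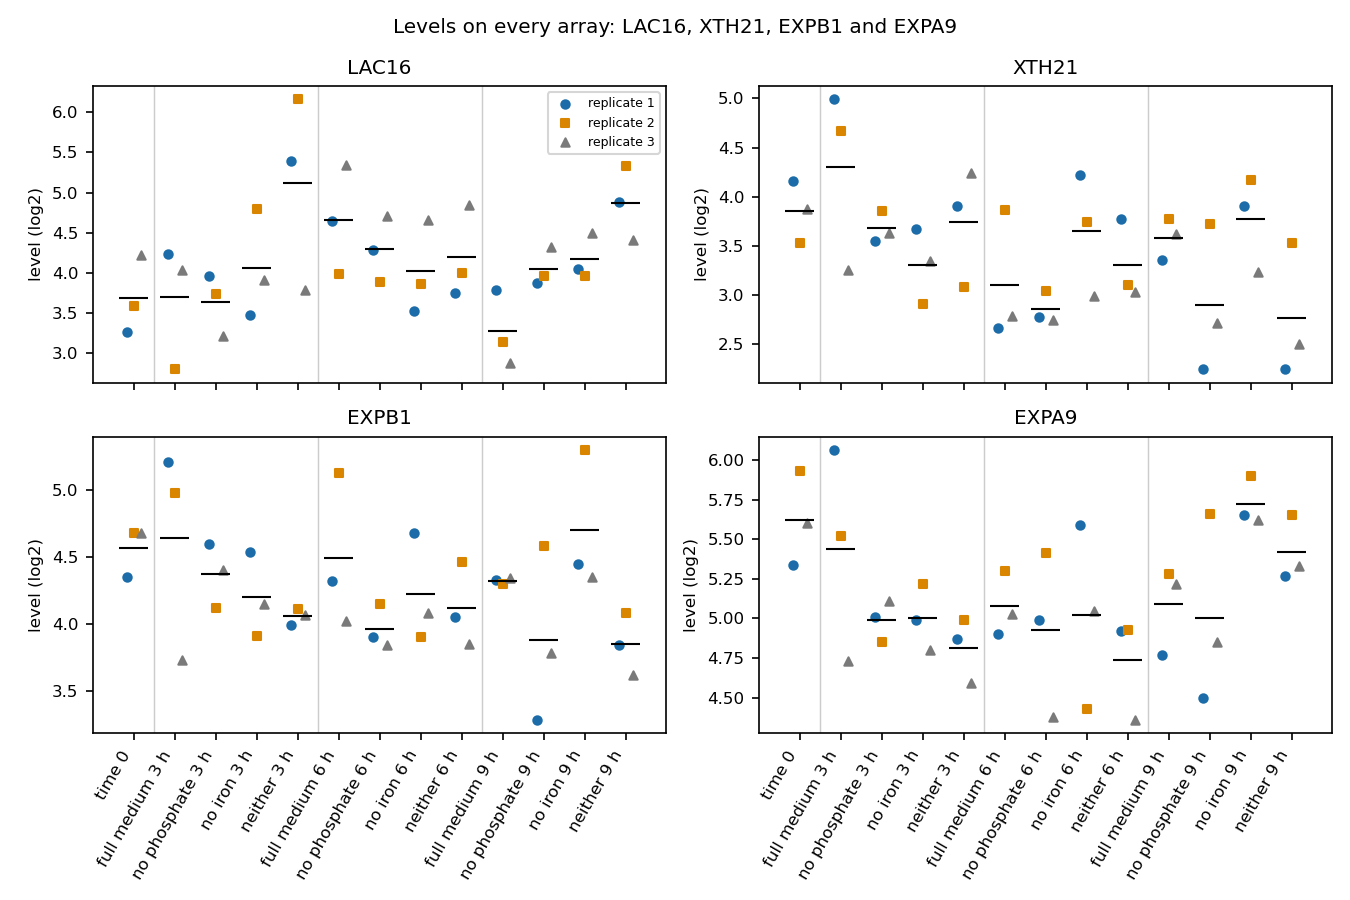
Level (log2) of LAC16, XTH21, EXPB1 and EXPA9 on each of the 39 arrays by group, with symbols for the replicate number and a bar for each group mean (n = 3). LAC16 without both nutrients at 9 h (4.41 to 5.33) lies above full medium at 9 h (2.88 to 3.79), whereas at 6 h the 2 groups overlap.

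Among the expansins, EXPB1, not called in any comparison, was lower by its mean at each time without phosphate and without both than in full medium. The 18 arrays without phosphate, with or without iron, ran from 3.28 over a median of 4.06 to 4.60, and the 18 with phosphate from 3.73 over 4.33 to 5.30. The ranges overlapped over most of their length. The difference was -0.39 (SE 0.13, interval -0.66 to -0.12), with an adjusted p of 0.530 in limma. Against full medium it was -0.41 without phosphate and -0.48 without both (SE 0.18 each), and -0.11 without iron.

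EXPA4 was the alpha-expansin with the largest mean difference in each deprivation, 0.29 without phosphate, 0.17 without iron and 0.42 without both (SE 0.23 each). Its only unadjusted p under 0.05 in a deprivation was at 6 h without phosphate, where it read 5.25, 5.43 and 4.20 against 4.47, 4.28 and 3.49 in full medium (0.87, SE 0.40). Replicate 3 was the lowest array of both groups, and EXPA4 differed by 0.58 without that of full medium. EXPB3 at the same time read 5.94, 5.75 and 4.21 against 4.90, 4.40 and 3.40, 1.07 higher (SE 0.61), again with replicate 3 lowest in both groups, and 0.65 higher without that of full medium.

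EXPA9 read 5.65, 5.90 and 5.62 at 9 h without iron, all above the full-medium arrays of 4.77, 5.28 and 5.22 (0.63, SE 0.30). At 3 h the arrays without iron (4.99, 5.22 and 4.80) were lower on average than those in full medium (6.06, 5.52 and 4.73). So were those without phosphate (5.01, 4.85 and 5.11) and without both (4.87, 4.99 and 4.59), against the same controls. The 6.06 of full medium was the highest EXPA9 value on any array. The difference between no iron and full medium at 9 h minus that at 3 h was 1.06 (SE 0.42, adjusted p 1.00 in limma), where 0% of rows were called. EXPA25 read 3.69, 4.36 and 3.68 at 9 h without both against 3.27, 3.53 and 3.2 in full medium, 0.58 higher (SE 0.26), again with no overlap and no call. Without replicate 2 of the deprived arrays the EXPA25 difference was 0.35.

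The expansin-like genes gave small values. EXLA3 was 0.19 higher than in full medium in each of the 3 deprivations (SE 0.11 each), with the same controls. EXLB1 differed by -0.07, 0.14 and -0.21 without phosphate, without iron and without both (SE 0.20 each). It read 3.30, 5.67 and 3.47 at 3 h without iron, and replicate 2 there was the highest EXLB1 value on any array. Without that array its mean difference without iron was -0.11.

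Of the XTH genes, XTH21 had the largest mean difference without phosphate, and it was not called. Its 18 arrays without phosphate ran from 2.24 over a median of 3.09 to 4.24, and the 18 with phosphate from 2.66 over 3.65 to 4.99. Absent against present the difference was -0.41 (SE 0.17, adjusted p 0.793 in limma), and against full medium -0.52 without phosphate (SE 0.24). At 3 h the arrays without iron (3.67, 2.90 and 3.34) were also lower than those in full medium (4.99, 4.67 and 3.25), by -1.0 (SE 0.42), with replicate 3 of full medium inside their range, and by -0.66 without replicate 1 of full medium.

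XTH16 and XTH33, the second a membrane-associated XTH, were the other members with an unadjusted p under 0.05 for phosphate, at -0.33 (SE 0.14) and -0.17 (SE 0.07). Their ranges with and without phosphate overlapped, from 1.08 to 2.74 against 1.45 to 2.96 for XTH16 and from 2.12 to 2.79 against 2.24 to 3.10 for XTH33. XTH20 was higher in all 3 deprivations by its mean, 0.27, 0.30 and 0.46 (SE 0.27 each). Its iron value rested on replicate 1 of 9 h, which read 3.61 beside 1.25 and 1.62, and was 0.05 without that array. XTH26, named above for root hairs, gave 0.40, 0.29 and 0.19 (SE 0.36 each).

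For pectin, PMEPCRF differed from full medium by -0.12, 0.17 and 0.12 (SE 0.16 each), and PME61, whose row is dim at a mean of 1.05, had no unadjusted p under 0.05 in a deprivation. Among the CSL genes the largest mean differences were -0.16 for CSLC6 without phosphate (SE 0.10), 0.13 for CSLD2 without iron (SE 0.11) and -0.27 for CSLC12 without both (SE 0.17). CSLD2, which root hairs need to grow normally, read 5.89, 6.47 and 6.44 at 3 h without iron and 5.91, 5.69 and 5.86 in full medium. The mean was 0.45 higher (SE 0.19), with replicates 2 and 3 above all controls and replicate 1 among them.

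CSLC5 was lower at 3 h without iron alone, at 4.27, 4.31 and 4.65 against 4.95, 5.17 and 4.32 in full medium (-0.40, SE 0.19), or -0.22 without replicate 2 of full medium. Without phosphate alone CSLC5 read 4.88, 4.11 and 4.58 at 3 h, also lower on average than those controls. It was not lower there without both, at 4.83, 4.80 and 5.01. The interaction of the 2 lacks at 3 h was 0.76 (SE 0.27, adjusted p 1.00 in limma), where 0% of rows were called.

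Members differed in how far their level followed the replicate number. The number accounted for a median of 10.4% of a member's variation, against 8.82% over all rows, and for over 25% in 11 members. Shares by replicate number and by group are not on 1 scale. Without any effect, 13 group means take up more of a row's variation than the means of 3 replicate numbers. XTH32 was the extreme, with 77.0% by replicate number and 11% by group. Its mean was 2.21, 2.11 and 3.21 in replicates 1, 2 and 3, and replicate 3 was the highest array in all 13 groups. By their means 27 members were lowest in replicate 3 (62.8%), as were 52.6% of all rows. EXPA4, at 40.6% by replicate number, had means of 4.99, 4.64 and 4.16, and replicate 3 was its lowest array in 10 of 13 groups.

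Some members varied together over the 39 arrays, which share libraries, replicate numbers and groups. Of 903 pairs the median Pearson correlation was 0.04, and the range was -0.49 to 0.88. EXPA7, EXPA18 and XTH26 formed 1 such set, with 0.88 for EXPA7 and EXPA18, 0.80 for EXPA18 and XTH26 and 0.78 for EXPA7 and XTH26. CSLC12 correlated with EXPA7 and with XTH26 at 0.77. Another set held EXPB3, XTH20, EXPA4 and EXPA15, with 0.88 for EXPB3 and XTH20, 0.85 for EXPA4 and XTH20 and 0.83 for EXPB3 with EXPA4 and with EXPA15. EXPB1 and XTH21, neither of them called for phosphate, correlated at 0.73.

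After the means of groups and of replicate numbers had been taken out, these 12 pairs, picked for their high correlations, had values between 0.67 and 0.84, and all 903 pairs a median of 0.02 and a range of -0.58 to 0.87. They are given as a description of these arrays.

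**Figure D5:**
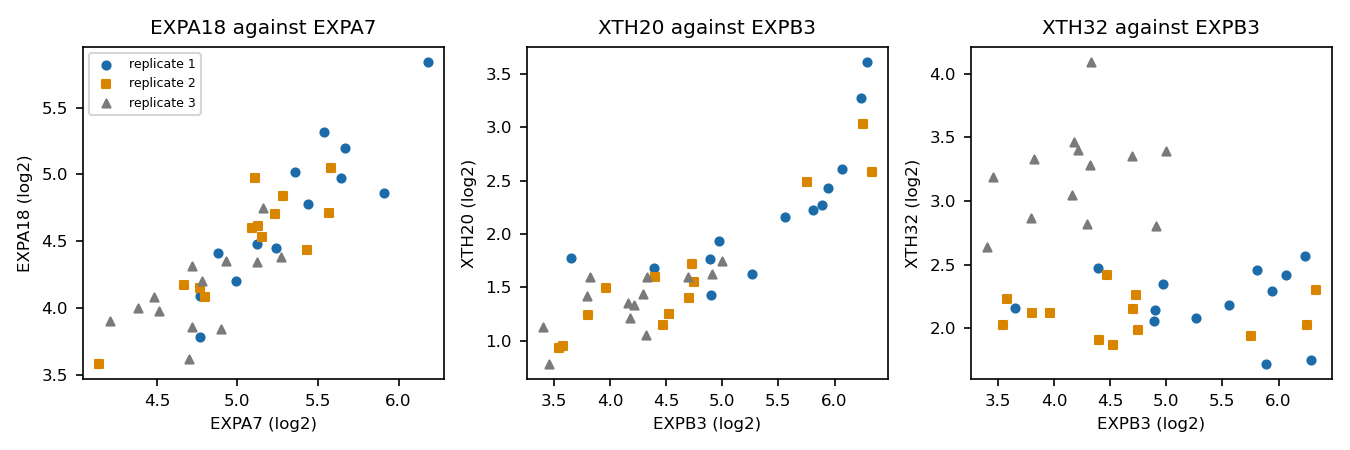
Levels (log2) of EXPA18 against EXPA7, XTH20 against EXPB3 and XTH32 against EXPB3 on the 39 arrays, with symbols for the replicate number. The first 2 pairs lie along a line (r = 0.88 each), and XTH32 sets replicate 3 apart from replicates 1 and 2.

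Other wall genes were read from lists of cellulose, hemicellulose, pectin, wall protein, lignin, wall sensing and secondary wall genes. Of 86 listed genes 9 have a row: COB and CC1 for cellulose, IRX10 and IRX15 for xylan, ADPG1, a polygalacturonase, HCT and PRX72 for lignin, and the receptor kinases FER and THE1. None was called in any of the 23 comparisons. A further 7 genes belong to the same families under other symbols, such as EXGT-A3, which is XTH27, and ATCSLC08, and none of them was called.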

How the data were processed

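Root RNA (100 ng of total RNA per sample, labelled with biotin) was hybridised to 39 whole-transcript arrays. Per the submitters' processing notes the authors used GCRMA, Transcriptome Analysis Console and Affymetrix Expression Console (version numbers are not given in the sources used here); the deposited values were used as log2 intensities, background-corrected and normalized by the authors, and the number of arrays limits the precision. Members and lists were chosen with earlier results of these data known. All arrays entered 1 limma fit (limma 3.58.1, R 4.3.3; lmFit and eBayes) with a mean per group and no block, tested on simulated data first. Each contrast was adjusted over all 28501 rows. Genes came from the platform annotation (16746 rows with 1 gene, 58.8%). Genes named were the brightest member of each family, the largest mean difference of each family in each deprivation and the 3 largest differences in each pooled time comparison. Others, with an unadjusted p under 0.05 or otherwise singled out, were chosen after their values were seen. Same-numbered arrays deviated together: every pair correlated over 0.1 in 16 of 22 contrasts. Over arrays of different groups the mean correlation was 0.259 for the same number. The -0.128 for other numbers is no separate baseline, since deviations from a group mean cancel out within the group. Alternatives were the replicate block, quantile normalization, a filter on dim rows, array weights, compared groups alone and each array left out. Sequences are not analysed here.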

Additional observations from a re-analysis of the deposited data

How the results depend on the processing

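No member was called in the 23 comparisons under quantile normalization or with the compared groups fitted alone, and all 39 named differences then kept their direction and their side of the threshold. The count of called members went from 0 to 1 in 4 cases. With the replicate block, EXPB3 was called 9 h after transfer (1 member; difference 1.17, adjusted p 0.0404) and PMEAMT between 3 and 6 h (1 member, adjusted p 0.0179), and the block changed no other call. With the filter on dim rows, which leaves 22 members and fewer rows to adjust over, PMEAMT was called between 3 and 6 h (1 member, adjusted p 0.0369). With array weights, LAC16 was called at 3 h without both nutrients (1 member, adjusted p 0.0315); the cause was not tested. Leaving out each array in turn gave 0 to 1 called members for 6 h against 3 h, PMEAMT in the 4 fits with a call (without replicate 1 of no iron at 6 h, replicate 2 of no phosphate at 6 h, or replicate 3 of full medium or of no iron at 3 h), and 0 in the other 22 comparisons. Among the 39 named differences, those that changed sign were LAC16 without phosphate (-0.03 to 0.23), EXPB3 without iron (-0.06 to 0.33) and EXLB1 without iron (-0.11 to 0.28), all means over times that were never called. Differences outside these 39 changed sign too, such as the mean of EXPA7 without iron (0.12, or -0.04 without replicate 1 of no iron at 3 h). Without replicate 3 in every group, an alternative chosen after seeing the data, EXPB3 without iron was -0.05. Rows near the bottom of the scale, which 9 members have, limit what can be seen in them.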
